A study of Mus musculus with 14 samples.

Results

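RNA-seq was compared between 2 cell populations sorted from the submandibular salivary gland of adult mice that had received no radiation: 3 libraries titled Tert+ and 3 titled Tert-, which are 6 of the 14 libraries of the series. The libraries were chosen by their titles and column names, with no measured value used. All mice carried 1 TertCreERT2 allele, which places a tamoxifen-inducible Cre recombinase at the telomerase reverse transcriptase locus, and 1 Rosa26LSL-tdTomato allele, a red fluorescent reporter that Cre switches on. In both populations live cells (DAPI-) with the epithelial surface protein EpCAM were collected, tdTomato+ cells as Tert+ and tdTomato- cells as Tert-. The other 8 libraries are the same 2 populations, 4 libraries each, after 15 Gy of radiation (RT). They enter here through the shared filter, scaling and estimate of spread, and as a second set of the same contrast. The labels do not give tamoxifen treatment, the time between labelling and sorting, or whether the replicates came from separate animals, so the p-values measure the spread between these libraries, which may be technical. A reporter switched on by Cre marks cells by past activity of the locus and stays on in their progeny, so the sort reads Tert history and not the present level of Tert RNA.

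Telomerase adds telomere repeats to chromosome ends. Its catalytic subunit, Tert, is kept low in most adult tissues and is used as a mark of rare long-lived epithelial cells. The mouse submandibular gland holds acini, which secrete mucins and other saliva proteins, and granular convoluted tubules, which store kallikreins and growth factors, and it also houses resident macrophages and lymphocytes. Resident macrophages take up dying cells through receptors such as Axl and the integrin heterodimer with Itgb5, make the C1q complement chains that tag debris, and move the lipid they take up out through apolipoprotein E.

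Library totals ran from 9220126 to 15943597 counts in the libraries labelled Tert+ and from 9687159 to 13454637 in those labelled Tert-, and 16935 to 18617 genes had a count. Levels are in CPM, counts per 1000000 of the TMM-scaled library. The first principal component of the 6 libraries (27.8% of the variance) set both replicate 1 libraries (scores 75.0 and 74.6) apart from the other 4 (-61.5 to -0.409). On the second (23.0%) the same 2 libraries lay at opposite ends, Tert+ 1 at 83.8 and Tert- 1 at -86.3. Across the 6 libraries and per kilobase of transcript, the mean level of Epcam was 29.9 CPM, of the keratin Krt18 72.9 and of Krt19 0.0891. On that scale the MHC class II invariant chain Cd74 stood at 21252 CPM and H2-Ab1 at 11337. The immunoglobulin heavy chain Ighm stood at 3671 and the B cell receptor chain Cd79a at 2226. These genes of B and antigen-presenting cells were far above Epcam and the keratins, in both populations. Secreted products of the epithelium were not low throughout. Acinar products took 0.296% to 3.88% of the counts in the libraries labelled Tert+ and 0.432% to 2.09% in those labelled Tert-. Mature B cell markers took 1.97% to 3.13% and 1.96% to 2.91%, and acinar products exceeded them in Tert+ 1 alone.

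Tert RNA went against the titles. It gave 0, 7 and 8 counts in libraries 1, 2 and 3 labelled Tert+ and 22, 28 and 13 in those labelled Tert-, or 0.350 ± 0.314 against 1.81 ± 0.566 CPM (mean ± SD, n = 3 each). The ranges did not overlap, and the exact two-sided permutation p was 0.1, the smallest that 3 against 3 libraries can give. The edgeR quasi-likelihood test over all genes gave a log2 fold change of -2.29 for Tert with an adjusted p of 1. The cell type field of the labels also names the opposite population in 14 of 14 libraries. Every direction given here therefore rests on the titles, and the groups are called the libraries labelled Tert+ and the libraries labelled Tert-. The labels do not say whether the CreERT2 allele still makes Tert RNA. Of the 19 telomerase and shelterin genes listed, all were tested, 12 were higher and 7 lower, 0 passed in edgeR, DESeq2 or voom, and 0 had an unadjusted p under 0.05. Their median log2 fold change was 0.12, and without Tert+ 3 10 were lower. Among them Pot1b, a shelterin protein on single-stranded telomere DNA, was at 9.53, 9.80 and 6.53 CPM against 5.30, 4.46 and 5.14, and Rtel1, a helicase that unwinds telomere loops, was at 9.77, 13.5 and 14.1 against 16.8, 25.8 and 18.1. Neither pair of ranges overlapped, in opposite directions.

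In edgeR, 6 of 15915 genes tested (0.0377%) passed an adjusted p of 0.05, and all 6 were lower in the libraries labelled Tert+, while 0 (0%) were higher. They included Ms4a7, a membrane protein of mature macrophages, Axl, a receptor tyrosine kinase for dying cells, Itgb5, the beta 5 integrin chain, Apoe, the lipid carrier, and C1qc, a chain of complement C1q. Levels in the libraries labelled Tert+ were 1.71% of those labelled Tert- for C1qc, 2.15% for Ms4a7, 6.16% for Axl, 12.2% for Itgb5 and 26.3% for Apoe. In bulk RNA from sorted cells, fewer cells of a type and less RNA per cell cannot be told apart. At an unadjusted p under 0.05 there were 716 genes (4.5%), 487 lower (3.06%) and 229 higher (1.44%). That share is no larger than the 0.05 such a threshold gives when no gene differs. Folds themselves were balanced: 7796 genes (49%) had a fold below 0, and the median over all genes tested was 0.01 on the log2 scale. DESeq2 called 72 of 14932 genes with an adjusted p (0.482%), 70 lower (0.469%) and 2 higher (0.0134%), and limma voom called 22 (0.138%), 21 lower (0.132%) and 1 higher (0.00628%). At least 2 of the 3 tools agreed on 22 genes (0.138%), and all 3 on 5 (0.0314%), which included Axl, Itgb5, Apoe and C1qc.

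Ms4a7 (ENSMUSG00000024672, mm10 chr19:11321039-11336146, minus strand) gave 1.34, 0.379 and 2.28 CPM in libraries 1, 2 and 3 labelled Tert+ and 55.1, 59.0 and 71.6 in those labelled Tert-. The groups were far apart, and the gene fell by 5.54 on the log2 scale (SE 0.65, edgeR adjusted p = 0.00503). C1qc (chr4:136889804-136893065, minus strand) stood at 13.4, 0.506 and 2.50 CPM against 320.4, 286 and 356. Library 1 labelled Tert+ carried most of the reads of its group, and all 3 stayed below the lowest library labelled Tert-. C1qc fell by 5.98 (SE 0.89, edgeR adjusted p = 0.0433). Axl (chr7:25757273-25788705, minus strand) was at 7.70, 4.49 and 7.59 CPM against 149, 84.3 and 87.9, and fell by 4.03 (SE 0.54, edgeR adjusted p = 0.0141). Its highest library was Tert- 1, and the other 2 libraries of that group were close to each other.

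For Itgb5 (chr16:33829665-33949338, plus strand) the libraries labelled Tert+ gave 18.4, 16 and 6.83 CPM and those labelled Tert- 141, 93.3 and 105. It fell by 3.04 (SE 0.42, edgeR adjusted p = 0.0141), with Tert+ 3 the lowest library. Apoe (chr7:19696109-19699188, minus strand) was the most abundant of the 6, at 318, 366 and 549 CPM against 1624, 1285 and 1769.9. No library came near 0, so the difference was partial, a fall of 1.92 (SE 0.30, edgeR adjusted p = 0.0433).

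**Figure D1:**
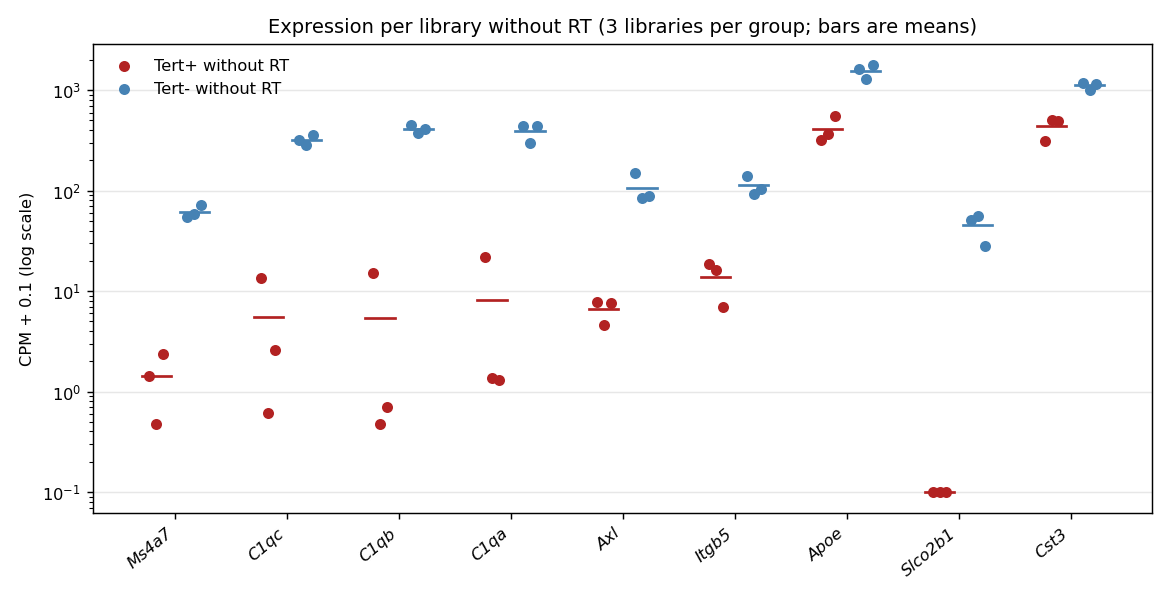
CPM plus 0.1 on a log axis for 9 genes in the 3 libraries labelled Tert+ (red) and the 3 labelled Tert- (blue) without RT, with each point a library and each bar a mean. The groups do not overlap for any of the 9, and each is lower in the libraries labelled Tert+, Slco2b1 with 0 reads in all 3.

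**Figure D2:**
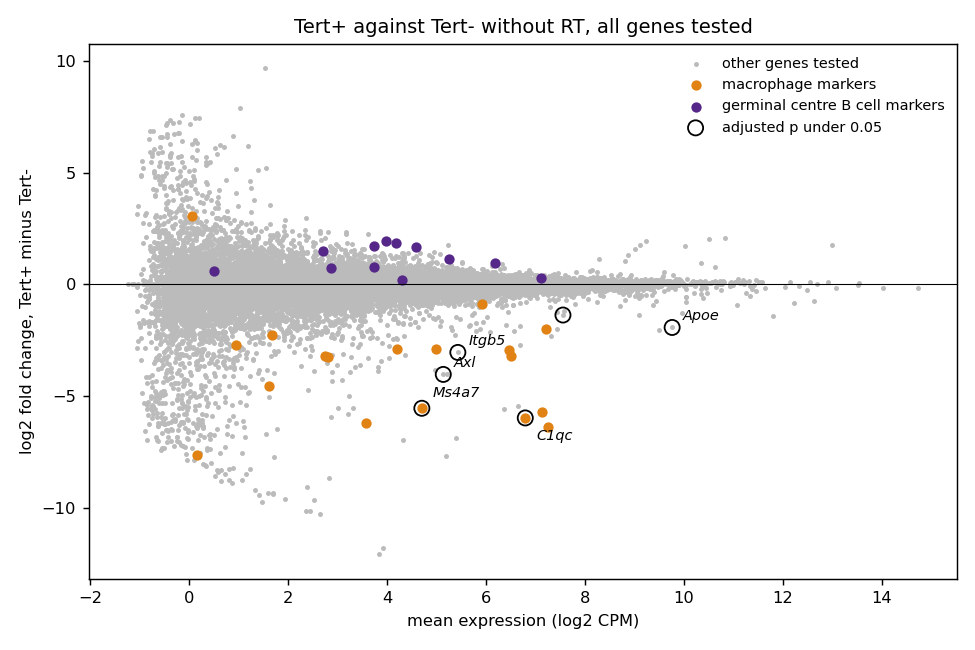
Log2 fold change (libraries labelled Tert+ minus Tert-) against mean log2 CPM for the 15915 genes tested, with the 6 genes past the adjusted threshold circled, macrophage markers in orange and germinal centre B cell markers in purple. The circled genes all lie below 0, macrophage markers lie below 0 for 17 of 18, and germinal centre markers above 0 for 12 of 12.

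The number of genes called was sensitive to single libraries. Without Tert+ 1, 2 or 3 the edgeR count was 8, 3 or 1, and without Tert- 1, 2 or 3 it was 3, 3 or 2. Leaving out 1 of the irradiated libraries gave 6, 4, 13 and 10 for those labelled Tert+ and 6, 3, 3 and 9 for those labelled Tert-. The irradiated libraries bear on this contrast through the filter, the scaling and the estimate of spread. Ms4a7 passed in 14 of the 14 fits, Axl in 12, Itgb5 in 10, Apoe in 6 and C1qc in 5. Axl lost its call without Tert+ 2 or Tert+ 3 (adjusted p up to 0.0830), and Itgb5 also without Tert- 1 or Tert- 3 (up to 0.0789). Apoe lost it without any 1 of the 6 libraries and without Tert- RT 2 or 3 (up to 0.259). C1qc lost it without Tert+ 3, any Tert-, Tert+ RT 1, 2 or 4, or Tert- RT 2 or 3 (up to 0.285). In the 10 other settings of tool, scaling, filter and libraries, Ms4a7 kept its call in 9 and lost it in limma voom (adjusted p = 0.0582). Axl kept it in 10, Itgb5 and Apoe in 9 and C1qc in 6. Itgb5, Apoe and C1qc lost it with the 6 libraries without RT alone. The highest adjusted p given for each gene covers the leave-out fits and these settings together. Over these fits and the other settings the log2 fold change ran from -7.87 to -5.37 for C1qc, -6.28 to -5.05 for Ms4a7, -4.18 to -3.73 for Axl, -3.30 to -2.71 for Itgb5 and -2.19 to -1.76 for Apoe.

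The 250 bases before the start of 5 of these genes are shown because the genes were lower together, and macrophage genes are known as targets of the factors PU.1 and MAF. They come from RefSeq on GRCm38.p6, 5′ to 3′ on each gene's own strand, at chr19:11336147-11336396 (minus) for Ms4a7, chr7:25788734-25788983 (minus) for Axl, chr16:33829415-33829664 (plus) for Itgb5, chr7:19699189-19699438 (minus) for Apoe and chr4:136892915-136893164 (minus) for C1qc. Capitals mark GAGGAA, the core bound by PU.1, read on either strand, so that TTCCTC is the same match on the other strand.
Ms4a7: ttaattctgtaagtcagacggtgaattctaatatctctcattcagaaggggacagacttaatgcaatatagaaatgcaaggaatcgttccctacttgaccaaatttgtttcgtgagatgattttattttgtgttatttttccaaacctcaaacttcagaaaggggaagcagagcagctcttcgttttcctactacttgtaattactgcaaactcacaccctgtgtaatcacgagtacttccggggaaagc
Axl: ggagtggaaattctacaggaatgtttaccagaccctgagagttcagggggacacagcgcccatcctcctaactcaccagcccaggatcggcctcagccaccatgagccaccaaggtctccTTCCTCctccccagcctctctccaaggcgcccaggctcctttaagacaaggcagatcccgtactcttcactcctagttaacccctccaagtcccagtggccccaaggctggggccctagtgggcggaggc
Itgb5: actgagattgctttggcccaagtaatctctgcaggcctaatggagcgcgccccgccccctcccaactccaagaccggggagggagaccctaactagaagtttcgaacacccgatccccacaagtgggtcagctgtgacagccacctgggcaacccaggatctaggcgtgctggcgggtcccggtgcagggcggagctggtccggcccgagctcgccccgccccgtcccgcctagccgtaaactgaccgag
Apoe: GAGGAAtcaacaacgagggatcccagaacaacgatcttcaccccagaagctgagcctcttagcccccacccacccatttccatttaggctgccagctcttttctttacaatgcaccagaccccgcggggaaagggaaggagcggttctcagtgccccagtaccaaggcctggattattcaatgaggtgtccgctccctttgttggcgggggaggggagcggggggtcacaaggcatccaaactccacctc
C1qc: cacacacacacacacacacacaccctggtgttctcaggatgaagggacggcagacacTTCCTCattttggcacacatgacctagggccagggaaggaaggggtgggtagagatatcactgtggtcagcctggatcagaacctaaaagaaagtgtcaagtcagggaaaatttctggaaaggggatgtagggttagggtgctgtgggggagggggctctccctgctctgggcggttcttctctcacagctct
GAGGAA was found in 3 of the 5 windows (Axl, Apoe and C1qc), against 7639 of 32851 windows of the same length over all RefSeq starts (23.3%). TGCTGA, a part of the MAF site, was searched in the same way and was found in 0 of the 5, against 16.1% of all windows. These windows do not overlap each other, and the start used lay 28 bases from the start in the deposited table for Axl and 151 bases from it for C1qc. The matches are descriptions of letters and not of binding.

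Macrophage markers were lower in the libraries labelled Tert+ as a group. Of 22 genes listed, 18 were tested, 17 of them lower and 1 higher. In edgeR 2 passed (Ms4a7 and C1qc), 15 had an unadjusted p under 0.05, and 9 passed in DESeq2 and 5 in voom. Between groups, 16 did not overlap and were lower, where 768 of all genes tested did so (4.83%), and 643 did not overlap and were higher (4.04%), 1411 either way (8.87%). Their median log2 fold change was -3.20, beside 0.01 over all genes, and 4 were left out for low counts. Of these, Lyve1 and Vsig4 had 0 counts in all 6 libraries, Folr2 had 1 count in Tert- 2, and Siglec1 had 0 in the libraries labelled Tert+ and 12, 0 and 24 in those labelled Tert-. Without any 1 of the 6 libraries 17 remained lower in count, with medians from -3.97 to -2.94. The shares over all genes are also the background for the lists that follow. At an unadjusted p under 0.05 they were 3.06% lower and 1.44% higher. Members of this list and of those lists were chosen with earlier results of these data known. Setting them beside these shares is therefore a description and not a test.

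The other C1q chains showed the largest gaps. C1qb gave 15.0, 0.379 and 0.607 CPM in the libraries labelled Tert+ and 446, 371 and 412 in those labelled Tert-, and C1qa 21.6, 1.26 and 1.21 against 445, 299 and 435. In both, Tert+ 1 stood above the other 2 libraries of its group and far below every library labelled Tert-. Neither passed in edgeR (C1qb log2 fold change -6.40, adjusted p = 0.125, C1qa -5.71, adjusted p = 0.151), and both passed in DESeq2 (adjusted p = 3.75e-06 and 3.41e-06) and voom (0.0285 and 0.0236).

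Aif1, an actin-bundling protein of microglia and macrophages, was at 5.13, 8.91 and 3.11 CPM against 54.5, 32.8 and 42.2 (edgeR adjusted p = 0.0612, voom 0.0339). Cx3cr1, the fractalkine receptor, was at 16.1, 41.7 and 31.8 CPM against 229, 204 and 248 (edgeR adjusted p = 0.453, voom 0.0443). For both of these the groups stood well apart. Adgre1, which encodes the F4/80 antigen, was at 13.8, 8.47 and 12.3 CPM against 89.8, 87.4 and 74.6, and Trem2, a lipid-sensing receptor, at 0, 3.48 and 1.44 against 14.1, 19.1 and 15.0.

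Some macrophage genes differed less. Csf1r, the receptor for macrophage colony stimulating factor, varied widely among the libraries labelled Tert+, at 29.2, 177 and 92.8 CPM against 454, 364 and 392. Cd68, a lysosomal glycoprotein of phagocytes, was at 24.2, 92.1 and 57.6 CPM against 105, 113 and 101, the highest library labelled Tert+ close to the lowest labelled Tert-. Cd163, a haemoglobin scavenger receptor, was the member in the other direction, at 3.91, 3.10 and 0.835 CPM against 0.368, 0.524 and 0, with no call. Cd14, the endotoxin co-receptor, was at 28.7, 39.8 and 14.4 CPM against 554, 112 and 96.9, so that Tert- 1 held most of its reads.

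Genes for uptake of dying cells and for lipid handling were mostly lower in the libraries labelled Tert+, by smaller folds. Of 27 listed, 26 were tested, 22 lower and 4 higher, 3 past the threshold in edgeR (Axl, Itgb5 and Apoe), 8 lower and 1 higher at an unadjusted p under 0.05, 11 not overlapping and lower, with a median of -0.42. Mertk and Trem2 are also on the macrophage list. Cd36, a scavenger receptor for oxidised lipid, was at 9.65, 27.8 and 42.1 CPM against 104, 117 and 71.6 (edgeR adjusted p = 0.218, DESeq2 0.00290). Stab1, a scavenger receptor for phosphatidylserine, had 2.57, 0 and 0 CPM against 39.3, 17 and 17.8. Lgmn, a lysosomal protease, differed modestly, at 183, 275 and 284 CPM against 354, 463 and 445. Havcr2, also called TIM-3, was at 0, 1.83 and 6.60 CPM against 30.3, 20.2 and 23.9. The member in the other direction with an unadjusted p under 0.05 was Ucp2, a mitochondrial carrier, at 945, 1184 and 1253 CPM against 773, 787 and 1023, with overlapping groups.

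Complement and Fc receptor genes were mostly lower in the libraries labelled Tert+. Of 19 listed, 18 were tested, 15 lower and 3 higher, 1 past the threshold in edgeR (C1qc), 8 not overlapping and lower, with a median of -1.38. C1qa, C1qb, C1qc and Fcgr1 are also on the macrophage list, so these lists are not independent of each other. Fcgr3, an activating IgG receptor, was at 3.66, 3.98 and 11.7 CPM against 37.9, 62.1 and 31.1 (log2 fold change -2.75, edgeR adjusted p = 0.109, DESeq2 0.000143, voom 0.0345). The inhibitory receptor Fcgr2b, which B cells also carry, was at 96.8, 131 and 111 CPM against 131, 141 and 110.3, with overlapping groups. C3ar1, the receptor for the C3a fragment, had 1.83, 0 and 0 CPM against 108, 32.3 and 47.4 (edgeR adjusted p = 0.278). Properdin, Cfp, lay the other way at 54.7, 120.3 and 72.8 CPM against 65.2, 30.5 and 26, with overlapping groups. Without Tert- 1 the median of the list was -0.72.

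Of the 22 genes on which at least 2 of the 3 tools agreed, 21 were lower in the libraries labelled Tert+ and 1 was higher. In 22 of 22 the groups did not overlap, which adds little, since these genes were picked by their calls in the same contrast. The macrophage list held 6 of them and the macrophage, clearance and complement lists together 10, while 10 were in none of the lists. Among those in no list, Cst3, the secreted protease inhibitor cystatin C, was at 311, 509 and 494 CPM against 1167, 1014 and 1164 (log2 fold change -1.35, edgeR adjusted p = 0.0845, voom 0.0236). Pea15a, a small adaptor that binds ERK, was at 24.8, 42.7 and 37.9 CPM against 119.9, 107 and 114 (edgeR adjusted p = 0.106, voom 0.0345). In both genes the libraries of each group lay close together.

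Lpcat2, which acylates lysophospholipids, was at 15.8, 25.8 and 17.5 CPM against 77.2, 75.5 and 64.2, and Acsl1, which activates long-chain fatty acids, at 14, 18.5 and 26.4 against 56.8, 50.5 and 63.8. Both passed in DESeq2 and voom and not in edgeR (edgeR adjusted p = 0.125 and 0.192). Lhfpl2, a tetraspan membrane protein, had 1.83, 0 and 0 CPM against 34.7, 29.2 and 26.5 (edgeR adjusted p = 0.259, voom 0.0285). Zmynd15 and Cxcl16, 2 genes on opposite strands that overlap by 552 bases, were both lower: Cxcl16, a scavenger receptor and chemokine, stood at 13.3, 3.22 and 3.34 CPM against 171, 71.7 and 70.3, and Zmynd15 at 0.611, 0.379 and 1.06 against 36.5, 24.6 and 36.1 (edgeR adjusted p = 0.0981 for both). Without a known strand setting, reads in the stretch they share cannot be told apart. The annotated spans of Cx3cr1 (with Csrnp1, Wdr48 and Gorasp1), Pea15a (with Dcaf8) and Rnase4 (with Ang) also overlap other genes and carry the same limit.

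A further set of genes had no read at all in one population. With 0 counts in all libraries labelled Tert+ and at least 10 in each labelled Tert- there were 28 genes, of 11878 with at least 10 counts in each library labelled Tert-, and in reverse there were 3 (Zik1, Ndnf and Vsnl1) of 11750. Against a floor of 3 counts over the group, Slco2b1, an organic anion transporter, was at least 575-fold lower in the libraries labelled Tert+, with 51.4, 55.9 and 27.7 CPM in those labelled Tert-. Dab2, an endocytic adaptor, was at least 195-fold lower (17.9, 12.9 and 16.1 CPM), Col14a1, a fibril-associated collagen, at least 182-fold (21.9, 8.04 and 12.5 CPM), and Dcstamp, a protein of macrophage fusion, at least 135-fold (15.8, 6.56 and 9.13 CPM). All 4 were present in each library labelled Tert-. None passed in edgeR (adjusted p = 0.0981 for Slco2b1, 0.192 for Dab2, 0.0628 for Col14a1 and 0.453 for Dcstamp). Il1a, a cytokine, was at least 781-fold lower, and there a single library set the size, since Tert- 1, 2 and 3 held 152, 6.82 and 4.09 CPM. In the reverse direction the bound was at least 23.5-fold higher for Zik1 and at least 11.2-fold higher for Ndnf. These bounds, here and below, cover the counting of pooled reads alone and not the spread between libraries.

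Summed over the list, macrophage markers took 0.0159%, 0.0380% and 0.0222% of the counts in the libraries labelled Tert+ and 0.287%, 0.188% and 0.227% in those labelled Tert-. The ratio of the means was 0.108, the groups did not overlap, and the exact two-sided permutation p was 0.1 (0.56 after adjustment over 14 marker lists), the smallest that this design allows. Mature B cell markers took 2.63 ± 0.597% and 2.49 ± 0.483% (mean ± SD, n = 3 each), dendritic cell markers 0.376 ± 0.0691% and 0.357 ± 0.111%, and T and NK cell markers 0.0934 ± 0.0242% and 0.0802 ± 0.0384%, each with overlapping ranges. Plasma cell markers also did not overlap, at 0.105%, 0.116% and 0.113% against 0.103%, 0.0967% and 0.0996%, with a ratio of the means of 1.12 and the same exact permutation p. The sort was gated on EpCAM, which macrophages are not known to carry. Timd4, a receptor for phosphatidylserine on resident macrophages, had 0 counts in all 3 libraries labelled Tert+ and 2.50, 1.14 and 3.78 CPM in those labelled Tert-, at least 29.8-fold lower, and it was the one tested macrophage marker at 0 in a whole group. Other shares differed in the mean with overlapping ranges. Products of the granular convoluted tubule took 0.332 ± 0.164% against 1.01 ± 0.501%, and germinal centre B cell markers 0.0732 ± 0.0256% against 0.0398 ± 0.00605%. The exact permutation p was 0.2 for each (0.56 after adjustment), and their part in the macrophage difference was not tested. Lyz2, a lysozyme of monocytes and macrophages alike, did not follow the macrophage list, at 298, 1349 and 1332 CPM against 730.4, 342 and 386, and Chil3, a chitinase-like protein of myeloid cells, was at 20.5, 38.3 and 32.1 CPM against 7.36, 2.10 and 8.19.

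**Figure D3:**
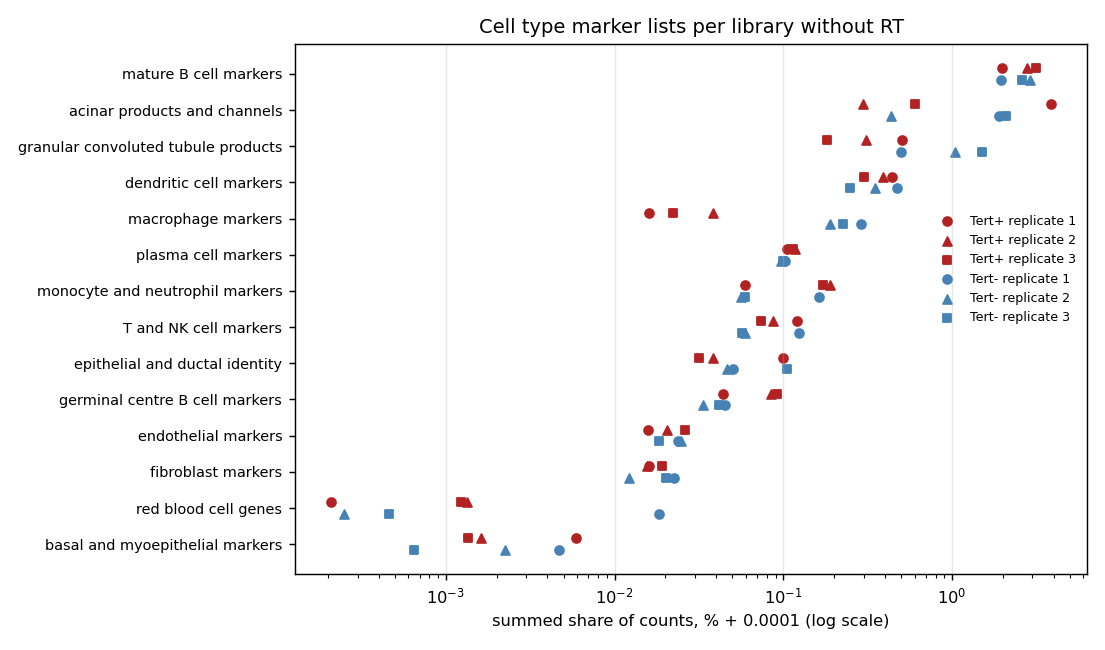
Summed share of counts of 14 cell type marker lists in each library without RT, in percent plus 0.0001 on a log axis, with red for libraries labelled Tert+, blue for those labelled Tert- and a symbol for each replicate number. Macrophage markers separate the groups (0.0254% against 0.234% in the mean), while shares of acinar products spread from 0.296% to 3.88% within the libraries labelled Tert+ alone.

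No gene rose past the edgeR threshold in the libraries labelled Tert+, where 2 did so in DESeq2 and 1 in voom.

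Germinal centre B cell genes lay on the higher side as a list. Of 12 listed, 12 were tested and 12 were higher, with a median log2 fold change of 1.06. In edgeR 0 passed the threshold and 4 had an unadjusted p under 0.05, beside 1.44% of all genes tested in that direction. For 6 the groups did not overlap, beside 4.04% of all genes. Rgs13, a regulator of chemokine receptor signalling in germinal centre B cells, was at 29.9, 85.9 and 67.3 CPM against 21.2, 10.2 and 19.2. S1pr2, which confines B cells to the follicle, was at 45.3, 75.0 and 101 CPM against 27.4, 18.0 and 23.4. Mef2b, a transcription factor upstream of Bcl6, was at 67.6, 119 and 138 CPM against 58.2, 37.6 and 53. In each of these 3, Tert+ 1 was the lowest of its group and lay near the highest library labelled Tert-. Gcsam, an adaptor that limits cell movement, was at 39.3, 64.0 and 63.5 CPM against 29.0, 8.39 and 6.09, and Neil1, a DNA glycosylase, at 86.6, 99.7 and 105 against 68.7, 32.4 and 46.1. Bcl6, the master repressor of the germinal centre, overlapped between groups, at 127, 233 and 273 CPM against 141, 194 and 186. Leaving out each of the 6 libraries left 11 or 12 of the 12 higher, with medians from 0.90 to 1.33.

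Mature B cell markers as a list did not share the direction clearly, with 14 of 19 higher and a median of 0.09, and without Tert- 1 14 were lower and the median was -0.07. Their one non-overlapping member, Pou2af1, a B cell transcriptional co-activator, was at 329, 306 and 324 CPM against 225, 173 and 232 (edgeR adjusted p = 0.678). Outside the B cell lists, the genes higher with the smallest p-values and no overlap included Kpna2, a nuclear import factor, at 76.5, 86.4 and 100.1 CPM against 58.3, 56.9 and 47.3, and H3f3a, which encodes histone H3.3, at 891, 872 and 1081 against 709, 745 and 683. Scn4a, a sodium channel, was at 59.9, 44.5 and 46.1 CPM against 26.1, 29.3 and 27.1, and Slc12a3, a sodium chloride cotransporter, at 6.11, 13.2 and 8.27 against 2.87, 2.10 and 2.52. The level in the libraries labelled Tert+ was between 133% (H3f3a) and 368% (Slc12a3) of that in the libraries labelled Tert- for these 4, and none of them passed in any of the 3 tools.

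Products of the granular convoluted tubule were lower in the libraries labelled Tert+ throughout the list without a call. Of 20 listed, 19 were tested, 19 were lower, 0 passed in edgeR, 1 had an unadjusted p under 0.05 and 5 did not overlap, with a median of -1.85. Klk1b26, a kallikrein, was at 368, 586 and 51.7 CPM against 749.8, 2434 and 946, and Klk1b5 at 56.0, 93.9 and 17.8 against 97.9, 526 and 205. Library Tert- 2 was the highest of the 6 for 17 of the 19 genes. Klk1, the tissue kallikrein, overlapped between groups, at 4758, 1544 and 1625 CPM against 3209, 4536 and 13122, as did Egf, epidermal growth factor, at 55.5, 119 and 6.22 against 50.7, 525 and 52.7. Leaving out each of the 6 libraries kept 18 or 19 lower, with medians from -2.78 (without Tert+ 2) to -1.07 (without Tert- 2). The Klk1b genes are near-identical copies, so their separate counts are uncertain.

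Acinar products varied more between replicates than between populations. Car6, a secreted carbonic anhydrase, was at 10241, 96.0 and 142 CPM in the libraries labelled Tert+ and 847, 309 and 2007 in those labelled Tert-, and the water channel Aqp5 at 262, 3.03 and 7.36 against 25.5, 4.98 and 49.97. Library Tert+ 1 held the highest level for 12 of the 18 acinar genes tested, and the median of the list was 0.83 with all libraries and -1.52 without Tert+ 1, when 15 of 18 were lower. Epcam itself was at 126, 29.7 and 34.5 CPM against 40.4, 34.8 and 99.8. Over the 20 genes of epithelial and ductal identity, 7 were higher and 13 lower (median -0.25), and without Tert+ 1 all 20 were lower (median -1.11). The median was above 0 without Tert+ 2 (11 of 20 higher, median 0.04), without Tert+ 3 (12 higher, median 0.10) or without Tert- 3 (16 higher, median 0.32), so the direction of the epithelial list was not stable to leaving out single libraries.

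Inflammatory cytokines and chemokines were lower for 20 of 26 tested, higher for 5, and 1 (Il6) had no read in these libraries, with 0 past the threshold and a median of -2.62. A single library lay behind much of this: Tert- 1 was highest for 17 of the 25 with a read, and without it 15 were lower and the median was -0.21. Il1b was at 22.8, 54.6 and 37.4 CPM against 297, 12 and 11.4, so that the other 2 libraries labelled Tert- were below all 3 labelled Tert+. Tnf was at 7.45, 1.39 and 2.81 CPM against 57.5, 6.73 and 5.25. Immediate early genes followed the same library, which was highest for 19 of 28, as with Atf3 at 64.9, 22.3 and 10.8 CPM against 376, 26.5 and 25.2. Their median was -0.32 with 24 of 28 lower, and 0.04 with 13 lower when Tert- 1 was left out. The macrophage list without Tert- 1 had 17 of 18 lower and a median of -2.95.

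**Figure D4:**
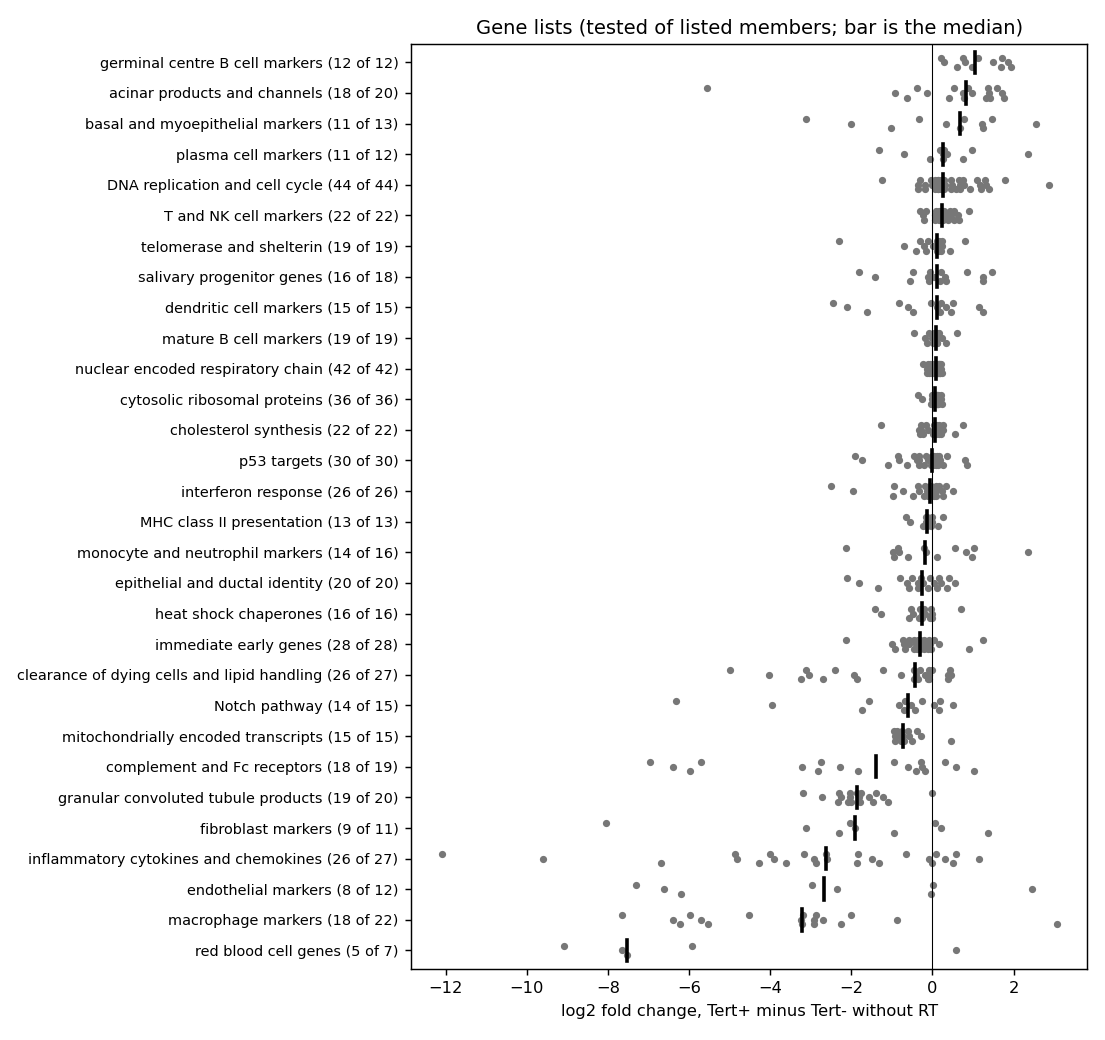
Log2 fold change (libraries labelled Tert+ minus Tert- without RT) of each tested member of 30 gene lists, with a bar at each median, ordered by median. The lowest medians are those of red blood cell genes (-7.53, 5 genes read mainly in Tert- 1), macrophage markers (-3.20), endothelial markers (-2.66), inflammatory genes (-2.62), fibroblast markers (-1.91), tubule products (-1.85) and complement and Fc receptors (-1.38), the highest is that of germinal centre B cell markers (1.06), and the others lie between -0.71 and 0.83.

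The same contrast after RT, in 8 libraries that share none with these 6, had 2 genes past the edgeR threshold (0.0126%), 391 not overlapping and lower (2.46%), 386 not overlapping and higher (2.43%) and 8024 with a fold below 0 (50.4%). Each of the 6 genes called without RT was lower after RT, with an unadjusted p under 0.05, and 0 of them passed there. Ms4a7 was at 9.85, 5.33, 6.82 and 8.98 CPM after RT in the libraries labelled Tert+ and at 59.3, 37.4, 33.9 and 10.3 in those labelled Tert-, a log2 fold change of -2.17 (edgeR adjusted p = 0.293). The lowest of the irradiated libraries labelled Tert-, number 4, lay just above the highest labelled Tert+. C1qc was at 11.1, 20.7, 19.6 and 12.6 CPM after RT against 209, 138, 116 and 42.5, and Apoe at 642, 303, 456 and 757 against 1367, 821, 845 and 1034. Folds were smaller than without RT for each of the 6, with -2.22 for Axl, -1.75 for Itgb5, -0.91 for Apoe and -2.99 for C1qc. The 6 were chosen for passing without RT, which by itself favours larger folds there. Both contrasts were tested in the same fit of all 14 libraries. The spread that helped pick these genes thus also set their p-values after RT, which are not independent of the choice. The difference between the 2 contrasts passed in edgeR for 0 genes.

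Of the 22 genes on which at least 2 tools agreed without RT, 21 were lower after RT, 8 without overlap, and 0 passed. Macrophage markers were lower for 16 of 18, 7 without overlap, with a median of -2.19. The difference between the contrasts without and after RT was tested directly: 0 genes (0%) passed in edgeR, 578 (3.63%) had an unadjusted p under 0.05, DESeq2 called 12 (0.0758%) and voom 0. The difference for Ms4a7 was -3.38 on the log2 scale, with an unadjusted p of 0.000372 and an edgeR adjusted p of 1. Cd14 went from -3.20 without RT to 0.94 after RT, a difference of -4.14 with an unadjusted p of 0.0014 that did not pass. Germinal centre B cell markers, higher for 12 of 12 without RT, had a median of -0.10 after RT. Tubule products had a median of 0.08 after RT, with 9 of 19 lower. Lists that were near 0 without RT could stand apart after it: of the 14 monocyte and neutrophil markers tested, 8 were lower without RT (median -0.19, or 1.74 with 1 lower when Tert- 1 was left out) and 0 after it (median 1.88), where Ly6c2, a monocyte surface antigen, passed (edgeR adjusted p = 0.0308).

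**Figure D5:**
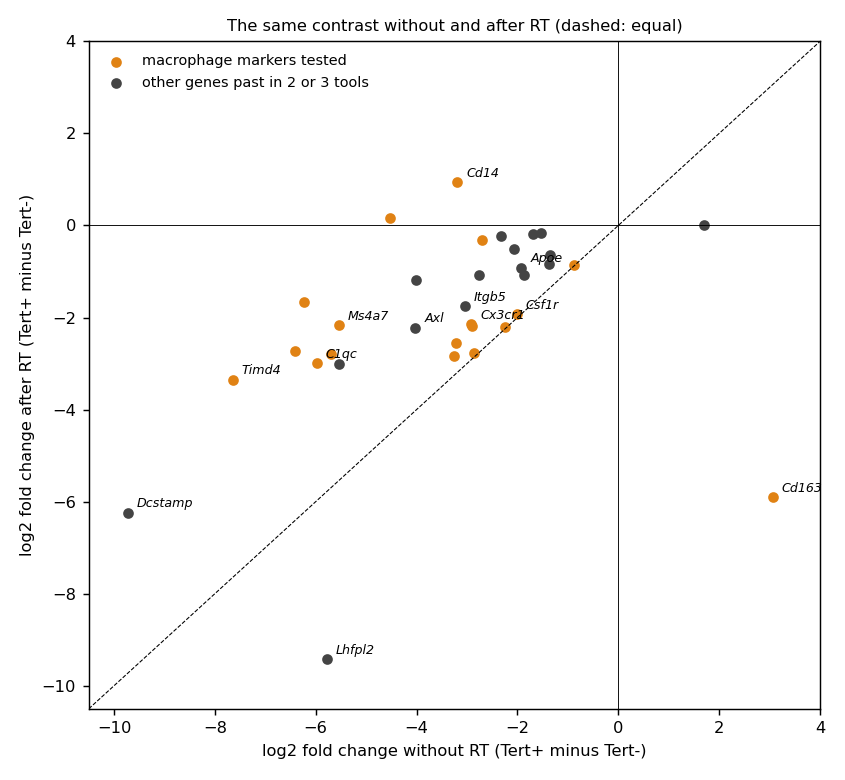
Log2 fold change after RT against that without RT (libraries labelled Tert+ minus Tert-) for the 18 macrophage markers tested (orange) and the other genes past the threshold in at least 2 tools (grey), with a dashed line where both are equal. Most points lie at the lower left, below 0 on both axes, and above the line, such as Ms4a7 at -5.54 and -2.17, while a few, such as Cd14 (-3.20 and 0.94), Marco and Cd163, lie outside that region. Genes past the threshold were picked by their calls without RT, which by itself favours larger folds there.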

How the data were processed

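RNA-seq read counts per gene were deposited by the authors as 1 table of raw counts with 54532 genes and no normalization. Reads were aligned with HISAT2 to mm10, per the submitters' processing notes, and the counting program, annotation and strand setting are not given in the sources used here. Libraries were made from 1 ng of RNA by the Picelli protocol, per the labels' protocols.

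Samples were grouped by title. edgeR 4.0.16 (R 4.3.3) was run on the counts of all 14 libraries in 4 groups: filterByExpr, which kept 15915 genes, TMM factors, robust quasi-likelihood fits with 10 residual degrees of freedom and the F test of the contrast Tert+ minus Tert- without RT, with Benjamini-Hochberg adjustment over all genes tested and a threshold of 0.05. DESeq2 1.42.0, limma voom 3.58.1, other scaling, other filters, the 6 libraries alone, a replicate block and each library left out were alternatives. DESeq2 gave no adjusted p for 983 genes, which stayed out of its counts. CPM is computed on the TMM-scaled library and CPM per kilobase divides it by the gene length in the deposited table. Summed marker shares and Tert were tested by exact permutation in Python 3.11.15 with scipy 1.17.1. The fits were tested on simulated data. The biological coefficient of variation was 0.588, and 1 count is the smallest step behind any value.

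Genes named are Tert, every gene past the threshold, those past it in at least 2 tools, the 12 higher and 12 lower with the smallest p among genes whose groups did not overlap and whose mean log2 CPM reached 3, and up to 4 members of each of 30 lists, with genes read in 1 group alone, overlapping genes and further list members named after their values were seen. Some genes that this rule names are not reported here. Members and lists were chosen with earlier results of these data known. Promoter windows of 250 bases came from RefSeq on GRCm38.p6.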

Additional observations from a re-analysis of the deposited data

How the results depend on the processing

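The edgeR count of 6 genes stayed at 6 with RLE factors and with dispersions fitted without robust weights, was 4 with upper quartile factors and 8 with the 6 libraries alone (2 shared with the 6), and came to 16 without a filter on low counts, 10 with a stricter one, 72 in DESeq2, 22 in limma voom and 36 with voom sample weights. Without single libraries it ran from 1 to 13. The difference between the contrasts without and after RT had 12 genes in DESeq2 and 0 to 1 in edgeR without single libraries. Same-numbered libraries deviated together with correlations of 0.106, 0.119 and -0.0021, beside -0.178 to 0.101 between libraries of different numbers. These values are too few and too small to settle whether the numbers pair the samples. A replicate block gave 7 genes, 5 of them shared.

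Median log2 fold changes of lists moved as follows. Under voom they were -3.58 for macrophage markers, -1.84 for complement and Fc receptors, 0.785 for monocyte and neutrophil markers, -0.735 for endothelial markers and -2.91 for red blood cell genes. With voom weights they were -0.889 for complement, 1.4 for monocytes, -1.38 for acinar products, 0.322 for endothelium, -1.24 for red blood cells, -1.1 for inflammatory genes, 0.722 for the cell cycle and -0.278 for Notch. A stricter filter gave -2.07 for complement and 0.186 for fibroblasts, the 6 libraries alone gave -1.83 for complement, -1.2 for endothelium and 0.568 for red blood cells, and the replicate block gave 0.928 for monocytes and -0.344 for endothelium.

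Without single libraries, medians ran from -0.0266 to 0.214 for telomerase, -3.97 to -2.94 for macrophages, -0.599 to -0.306 for clearance, -1.8 to -0.723 for complement, -0.559 to 1.74 for monocytes, -0.306 to 0.49997 for dendritic cells, 0.157 to 0.391 for plasma cells, -1.52 to 1.8 for acini, -0.968 to 1.32 for basal cells, -0.623 to 0.214 for progenitor genes, -3.24 to -0.108 for endothelium, -3.57 to -0.00238 for fibroblasts, -8.09 to 1.27 for red blood cells, -3.16 to -0.211 for inflammatory genes, -0.446 to 0.0354 for immediate early genes, 0.153 to 0.733 for the cell cycle, -0.36 to 0.0703 for interferon, -0.795 to -0.0862 for Notch and -1.24 to -0.429 for mitochondrial transcripts. Differences in summed share (percentage points) changed sign without single libraries for dendritic (-0.0352 to 0.076), mature B (-0.126 to 0.468), T and NK (-0.000165 to 0.0354), acinar (-1.02 to 0.77), epithelial (-0.0326 to 0.00808), basal (-0.00104 to 0.0015), endothelial (-0.00428 to 0.000923), fibroblast (-0.00443 to 0.000735) and red blood cell markers (-0.00849 to 0.00057). The macrophage difference of -0.209 ran from -0.232 to -0.182. The cause of these shifts was not tested. Of the alternatives for 62 single genes, 1313 kept direction and side of the threshold, 110 crossed to past it, 43 crossed back and 0 changed sign. Genes with few reads have wide errors, and 3 libraries a group limit every test here.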

Other observations

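The remaining gene groups had 0 members past the edgeR threshold. Genes of DNA replication and the cell cycle were higher in the libraries labelled Tert+ for 36 of 44, 0 at an unadjusted p under 0.05 and 6 without overlap (median 0.26, or 0.73 with 41 higher when Tert- 1 was left out), with 0 calls in DESeq2 and voom. Ccne2, the cyclin E2 of S phase entry, was at 4.15, 4.99 and 3.80 CPM against 1.03, 1.66 and 1.05, and Tpx2, a spindle assembly factor, at 18.1, 7.65 and 13.1 against 0, 5.24 and 0. Mcm5, a subunit of the replicative helicase, was at 125, 159 and 143 CPM against 122, 107 and 123. The groups did not overlap for these 3, and Tert+ 1 was close to Tert- 3 for Mcm5.

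Mitochondrially encoded transcripts were lower for 14 of 15, 5 of them at an unadjusted p under 0.05 (median -0.71, or -1.24 without Tert+ 1). mt-Co2, a subunit of cytochrome oxidase, was at 33.0, 23.0 and 16.8 CPM against 49.5, 53.1 and 35.4, and mt-Nd4, a subunit of complex I, at 400.2, 167 and 152 against 513, 408 and 434. Neither overlapped. Nuclear genes of the same respiratory chain did not share that direction in number, with 33 of 42 higher, 0 at an unadjusted p under 0.05 and a median of 0.09, and without Tert- 1 31 were lower. Cytosolic ribosomal protein genes were higher for 32 of 36 (median 0.07), with Tert+ 1 the highest library for 32, and 30 were lower without it.

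MHC class II presentation genes were lower for 11 of 13 (median -0.12, 2 at an unadjusted p under 0.05). H2-DMb1, a chain of the peptide exchange factor, was at 231, 172 and 224 CPM against 373, 295 and 311, and Ctss, the protease that trims the invariant chain, at 815, 1145 and 1105 against 1319, 1750.3 and 1440.0. Both were without overlap, while Ifi30, a lysosomal thiol reductase, was at 402, 437 and 473 against 339.5, 380.2 and 371, without overlap in the other direction. Notch pathway genes were lower for 10 of 14 (median -0.60, or -0.09 without Tert- 1), among them the ligand Jag1 at 0.855, 0.253 and 0.380 CPM against 17, 2.88 and 3.15. Dendritic cell markers were higher for 8 of 15 (median 0.11), with 2 lower and 1 higher without overlap. Among the lower, Cadm1, an adhesion molecule of cross-presenting dendritic cells, was at 7.33, 12.5 and 3.64 CPM against 43.0, 34.4 and 51.4. Clec10a lay the other way, with 103, 207 and 150 counts against 97, 30 and 65.

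Interferon response genes were lower for 17 of 26 (median -0.07, with 15 higher without Tert+ 1), with Mx1 at 0.733, 0.443 and 1.29 CPM against 5.52, 4.20 and 4.41. T and NK cell markers were higher for 18 of 22 (median 0.24), with 17 lower without Tert+ 1. Plasma cell markers were higher for 8 of 11 (median 0.27), cholesterol synthesis genes for 14 of 22 (median 0.06), basal and myoepithelial markers for 7 of 11 (median 0.67) and salivary progenitor genes for 9 of 16 (median 0.12), and without Tert+ 1 the last 2 lists had 10 of 11 and 13 of 16 lower. Heat shock chaperones were lower for 14 of 16 (median -0.26) and p53 targets for 17 of 30 (median -0.02). Endothelial markers were lower for 6 of 8 (median -2.66) and fibroblast markers for 6 of 9 (median -1.91), both at low counts and with 5 lower in each when Tert- 1 was left out (median -0.11 for endothelium). Red blood cell genes were lower for 4 of 5 (median -7.53, or -5.92 with genes at 0 set to their bound), and their reads came mainly from Tert- 1, without which the median was 1.27, as with Hba-a1 at 0, 0.443 and 0 CPM against 117, 0 and 0. At an unadjusted p under 0.05, 4 of the red blood cell genes, 3 endothelial markers, 2 genes each of the Notch, interferon and p53 lists and 1 each of the heat shock, dendritic cell and fibroblast lists were lower, plasma cell markers had 1 lower and 1 higher, and the T and NK cell, cholesterol, basal, progenitor and ribosomal lists had 0.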
